A study of Mus musculus with 6 samples.

Results

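The Osr1 Fndc1 fibroblast-like cells are a small population of collagen-expressing liver cells picked out by raw transcript counts. A cell was a member if it held at least 2 unique molecular identifiers (UMIs, each a single captured mRNA molecule) of Osr1, Fndc1 and Tmem119 together and at least 1 of Col3a1. It could hold at most 1 UMI of Myh11 (smooth muscle), of Upk3b and Muc16 together (mesothelium), of Cdh5 and Ptprb together (endothelium), and of Cd3d, Cd3e, Cd3g and Cd79a together (lymphocytes). The rule found 201 members among 42682 filtered cells (0.471%), the filter being a minimum of 300 detected genes and a mitochondrial share of no more than 20%. Since measured transcripts chose the members, the levels of those genes are a description, and no comparison of members with another cell class was tested.

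The series holds 1 library of dissociated whole liver from each of 6 mice, made with the 10x Genomics 3′ chemistry. The 3 knockout mice were Stingfl/fl Cdh5-Cre+, in which Cre recombinase driven by the endothelial Cdh5 promoter acts on the floxed Sting allele, and the 3 control mice were Stingfl/fl Cdh5-Cre-, which carry the same floxed allele without Cre. All 6 mice ate normal chow until 8 weeks of age and then had 12 weeks of western diet with carbon tetrachloride (WD-CCl4), which was given to bring on MASH, the steatohepatitis that goes with metabolic dysfunction. No untreated mice were among the samples. The Cdh5 promoter is active in endothelium, so the deletion is aimed at endothelial cells and the members are not its target cells. The cell type label of the samples is liver sinusoidal endothelium, yet most of the 42682 filtered cells fell outside an endothelial gate. The gate asked for at least 2 UMIs of Cdh5 and Ptprb together. It kept the rule's limits on Myh11, on Upk3b and Muc16, and on the lymphocyte genes. It held 1175 cells of the knockout and 1312 cells of the control libraries. The libraries held 55017937 to 73867890 UMIs. Members numbered 22, 13 and 43 in the knockout libraries and 27, 30 and 66 in the control libraries, and their median depth was 7848 UMIs. The 15 pairs of libraries shared 5 to 25 cell barcodes, no barcode was a member in more than 1 library, and 4 member barcodes were also recorded in another library. A doublet score called 3 of the 201 members (1.49%), all in control 3, and 938 of all filtered cells (2.20%).

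Fibroblasts of the liver sit around portal tracts, in vessel adventitia and under the capsule, and they differ from hepatic stellate cells, the vitamin A-storing pericytes of the sinusoid that supply much of the scar collagen in chronic injury. In several mouse organs, adventitial fibroblasts that express Pi16, Dpt and Ly6a form a reservoir from which other fibroblasts can arise. Osr1 encodes a zinc-finger transcription factor of embryonic mesoderm and muscle connective tissue, Fndc1 a secreted protein with fibronectin type III domains, and Tmem119 a membrane protein best known from microglia and from osteoblasts. Sntg1 encodes a syntrophin, an adaptor of the dystrophin complex, and Enpp2 encodes autotaxin, the secreted enzyme that makes lysophosphatidic acid.

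By their wider transcripts most members were fibroblasts, but not all, as their clusters show below. Dcn, the proteoglycan decorin, had a UMI in all 201 members, but also in 99.7% of the mesothelial cells gated below. Dpt, the matrix protein dermatopontin, had one in 187 members (93.0%). Lum, the proteoglycan lumican, had a UMI in 174 (86.6%), and 188 members (93.5%) held at least 2 UMIs of Dpt and Lum together. Pdgfra, the receptor that marks fibroblasts in many organs, averaged 423 ± 93.9 CPM (mean ± SD over 6 libraries; CPM is the gene's share of all UMIs summed over the members of a library, scaled to a fixed total). Msln, the mesothelial surface protein mesothelin, had 10 UMIs summed over the 201 members, found in 4 of them. Wt1, a transcription factor of mesothelium, had a UMI in 90 members (44.8%). Markers of other lineages were measured too, and since the rule limits Muc16, Cdh5, Ptprb, Cd3d, Cd3e, Cd3g and Cd79a, low levels of these genes are no finding. The 12 mesothelial markers summed to 358 to 605 CPM in knockout and 308 to 2766 CPM in control libraries, with Muc16 at 0. They include the keratin gene Krt8, which alone was at 1376 CPM in control 3, and at 685 CPM without 1 cell. The 9 hepatocyte markers summed to 63.7 to 114.6 CPM in knockout and 48.4 to 785 CPM in control libraries. The summed level of 9 cholangiocyte markers, all of which had UMIs in members, was 40.9 to 233 CPM in knockout libraries and 54.0 to 4999 CPM in control libraries. The control library at 4999 CPM was control 3, where 1 cell held 54.3% of the Krt8 UMIs and 5 of 66 members had any. The 8 macrophage markers summed to 0 to 38.7 CPM in knockout and 16.1 to 95.8 CPM in control libraries, with Fcgr1, C1qb and C1qc at 0. The 7 T cell markers summed to 8.18 to 33.9 CPM in knockout and 5.38 to 10.8 CPM in control libraries, with Cd3g and Cd3e at 0. The 10 endothelial markers summed to 104 to 491 CPM in knockout and 97.2 to 319 CPM in control libraries, with Emcn, Tie1 and Cdh5 at 0. Most of this sum was Tek, the angiopoietin receptor, and Pecam1, an endothelial adhesion molecule. Tek was at 122, 278 and 43.5 CPM in knockout and 81.0, 75.3 and 65.3 CPM in control members. Among the fibroblasts and mural cells clustered below, Tek reached 291 CPM in the cluster led by Pi16, where 72.5% of cells had a UMI. In the remaining clustered cells Tek was at 11.7 CPM, so its level in members is not specific to endothelial cells. Pecam1 was at 37.1, 196 and 46.0 CPM in knockout and 238, 53.8 and 16.0 CPM in control members, so knockout 2 was high for both and control 1 for Pecam1. The part of these cells or transcripts in the results below was not tested.

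Fndc1 and Osr1 carried the rule. Fndc1 alone met the threshold in 144 members, Osr1 alone in 73 and Tmem119 alone in 37, and a cell can be counted under more than 1 of them. The most common combination was Osr1 with Fndc1, in 72 members, followed by Fndc1 without the others in 43 and all 3 genes in 33. Another 27 members held Fndc1 and Tmem119, 14 held Tmem119 without the others, 7 held Osr1 and Tmem119, and 5 held Osr1 without the others. The sum of the 3 genes was exactly 2 in 47 members, at the edge of the rule, and had a median of 5 over all members. A further 88 cells met every other limit with a sum of exactly 1 and stayed outside. At this edge Pi16, a marker of adventitial fibroblasts, was at 235 CPM inside and 82.6 CPM outside, Dpt at 1561 CPM inside and 1220.2 CPM outside, and Reln, a stellate cell marker, at 43.6 CPM inside and 256 CPM outside. Other fibroblast genes went the other way, with Col3a1 at 685 CPM inside and 1781 CPM outside and Lum at 707 CPM inside and 831 CPM outside. The epithelial keratin gene Krt8 was at 1365 CPM inside and 145 CPM outside. The share of cells with a UMI differed little for Reln (10.6% inside, 11.4% outside) and Krt8 (8.51% inside, 7.95% outside). Dpt was alike in this, with a UMI in 87.2% of cells inside and 83.0% outside. The pooled levels of Reln, Krt8 and Dpt therefore do not show that the edge separates cells with these transcripts from cells without them. Pi16 had a UMI in 27.7% of cells inside and 19.3% outside. No difference at this edge was tested.

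Fndc1 (mouse genome GRCm38, chromosome 17, positions 7738569 to 7827302, minus strand) was at 568, 540.1 and 513 CPM in members of the knockout libraries and at 518, 592 and 329 CPM in members of the control libraries. Osr1 (chromosome 12, 9570116 to 9581500, plus strand) was at 138, 180.0 and 159.6 CPM in knockout and 119, 221 and 141 CPM in control members. Tmem119 (chromosome 5, 113793729 to 113800516, minus strand) was at 127, 40.9 and 89.5 CPM in knockout and 86.4, 145 and 63.9 CPM in control members. The knockout and control ranges overlapped for all 3 genes. Their means over 6 libraries were 510.0 ± 93.4 CPM for Fndc1, 159.6 ± 36.4 CPM for Osr1 and 92.2 ± 38.8 CPM for Tmem119 (SD).

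These 3 genes were not private to the members. In mesothelial cells, defined here by at least 2 UMIs of Upk3b and Muc16, Fndc1 averaged 43.5 ± 19.5 CPM, Osr1 27.6 ± 10.8 CPM and Tmem119 71.6 ± 26.2 CPM. Because 2641 mesothelial cells stood against 201 members and were deeper (median 18132 UMIs), they held more of each gene's UMIs. Members held 11.6% of all Osr1 UMIs in the filtered cells and mesothelial cells 64.3%. Members held 16.1% of the Fndc1 UMIs and mesothelial cells 46.2%. Members held 3.12% of the Tmem119 UMIs and mesothelial cells 78.1%, and Tmem119 levels in members and mesothelial cells overlapped across libraries. A UMI of Osr1 was found in 58.2% of members (exact 95% Clopper-Pearson interval 51.1% to 65.1%) and one of Fndc1 in 87.1% (81.6% to 91.4%), at a median of 7848 UMIs. Tmem119 had a UMI in 40.3% of members and in 53.7% of the deeper mesothelial cells. As a measure of free RNA, 0.320% of the 15324 cells of the T cell class had a UMI of Osr1 and 0.698% one of Fndc1, at a median of 5790 UMIs. Members were chosen by UMIs of these genes, so their shares are shaped by the rule and the T cells do not test them. The intervals take cells as independent and leave out the spread between mice.

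The other markers given for the population differed from each other. Sntg1 (chromosome 1, 8361475 to 9299878, minus strand) was at 366, 695 and 774 CPM in knockout and 675, 474 and 517 CPM in control members, and the groups overlapped. It averaged 583 ± 156 CPM in members, 665 ± 517 CPM in Dpt Lum fibroblasts, 89.9 ± 54.8 CPM in mesothelial cells and 27.7 ± 43.7 CPM in mural cells. Dpt Lum fibroblasts are the 177 cells that met the same exclusions and Col3a1 minimum with at least 2 UMIs of Dpt and Lum and at most 1 of Osr1, Fndc1 and Tmem119 together, and mural cells are the 366 with at least 2 UMIs of Myh11 and at least 1 of Col3a1. Sntg1 was higher in members than in Dpt Lum fibroblasts in 3 of 5 mice, with a mean within-mouse log2 ratio of -0.08 ± 1.40 (SD), with no common direction across mice. Enpp2 (chromosome 15, 54838901 to 54952892, minus strand) was at 175, 213 and 131 CPM in knockout and 157, 215 and 144 CPM in control members, again with overlap. It averaged 172 ± 35.5 CPM in members, 63.3 ± 33.3 CPM in Dpt Lum fibroblasts, 34.0 ± 25.4 CPM in mesothelial cells and 246 ± 98.3 CPM in mural cells. It was higher in members than in Dpt Lum fibroblasts in all 5 mice compared, and lower in members than in mural cells in all 5 mice compared.

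**Figure D1:**
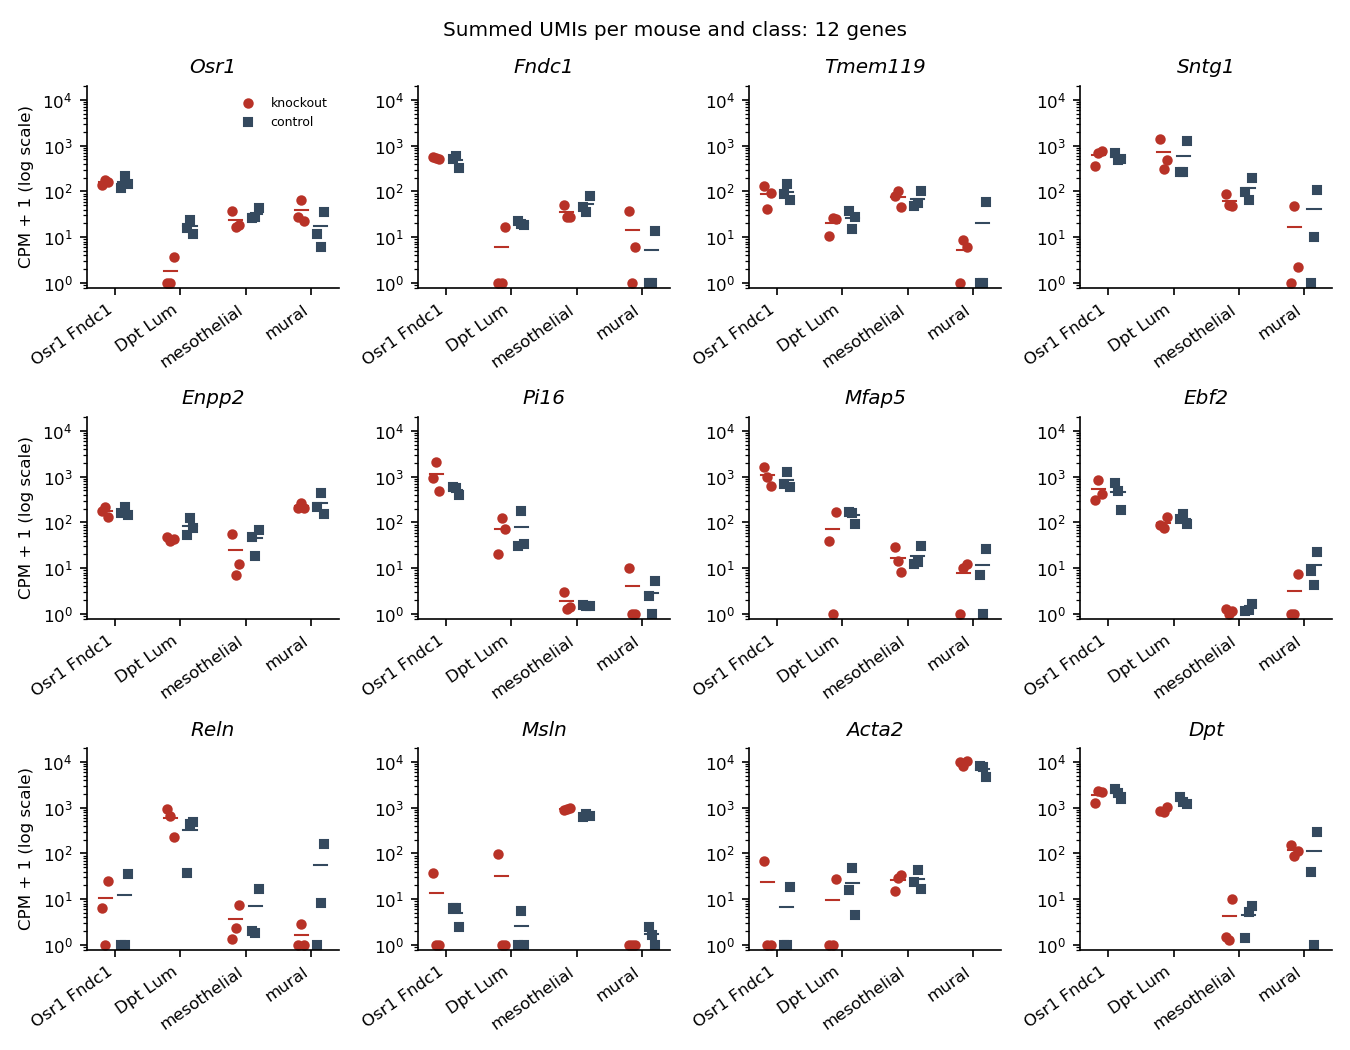
Levels of 12 genes, the rule genes and markers among them, (CPM + 1 of summed UMIs on a log axis, each point a library, horizontal bars the mean) in members, Dpt Lum fibroblasts, mesothelial cells and mural cells, with knockout libraries drawn left of control libraries. Fndc1 lies between 329 and 592 CPM in the members, above every library of the other classes, while Tmem119 overlaps between members and mesothelial cells. Members were chosen by Osr1, Fndc1 and Tmem119, and Dpt Lum fibroblasts may hold at most 1 UMI of them together. The gap between these classes in the rule genes is therefore no finding.

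The closest class was the Dpt Lum fibroblasts, which had almost the same depth (median 7647 UMIs). Both gates share the Col3a1 minimum and the exclusions, and 93.5% of members also met the Dpt and Lum minimum. The closeness of the classes was therefore in part set by the gates. The comparison used the 5 mice with at least 10 cells of both classes, which left out knockout 2 with 9 Dpt Lum fibroblasts. UMIs were summed per library and class, and the log2 ratio of CPM + 10 was taken within each mouse over 7191 genes with a mean level of at least 20 CPM, without the genes of any gate. No gene was 4-fold higher in members in every mouse (0% of genes), and 3 were 4-fold lower in every mouse (0.0417%). At 2-fold in every mouse, 21 genes were higher (0.292%) and 26 lower (0.362%). The genes of the 2-fold sets are named after their values were seen.

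On the list of 16 portal and adventitial fibroblast markers, 3 genes belonged to the 2-fold higher set, namely Pi16, Fbln2 and Ly6a. Pi16 (chromosome 17, 29317680 to 29330593, plus strand), a secreted protease inhibitor and the namesake of Pi16+ adventitial fibroblasts, was at 939, 481, 605, 565 and 390.3 CPM in members of knockout 1 and 3 and control 1, 2 and 3, against 19.2, 71.4, 29.4, 173 and 32.1 CPM in Dpt Lum fibroblasts of the same mice. The 2 classes did not overlap, and the mean log2 ratio was 3.30 ± 1.29 (SD, n = 5 mice). Mfap5 (chromosome 6, 122505845 to 122529290, plus strand), a microfibril glycoprotein, was at 1634, 624, 680.3, 1281 and 588 CPM in members, against 38.3, 172, 169, 163.3 and 92.7 CPM in Dpt Lum fibroblasts. Members were again above Dpt Lum fibroblasts in every mouse, by a log2 ratio of 2.86 ± 1.32 (SD, n = 5 mice). Igfbp6, a binding protein of insulin-like growth factor 2, had a log2 ratio of 2.49 ± 1.67. Its ratio varied widely between mice, with a lowest value of 1.11 and a highest of 5.39.

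The rest of the higher set had mean log2 ratios of 1.39 to 2.39. It included the matrix genes Fn1 (fibronectin, 990 ± 216 CPM in members against 262 ± 49.3 CPM in Dpt Lum fibroblasts), Fbln2 (fibulin 2), Emilin2 (an elastin-associated glycoprotein) and Pcolce2, which enhances procollagen processing. It included surface proteins and receptors, namely Cd248 (endosialin), Thbd (thrombomodulin), Ackr3 (an atypical receptor of CXCL12), Adgrd1 (an adhesion G protein-coupled receptor), Ly6a (the Sca-1 antigen of many mesenchymal progenitors) and Ly6c1. Ly6 genes have near-identical copies, so reads of Ly6c1 may be shared with Ly6c2. The semaphorins Sema3c and Sema3e, which guide axons and vessels, were both in the set. The other members were Lrrn4cl, Sbsn, Nkain4, Tppp3, Fez1 and Vat1.

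Genes lower in members were led by stellate cell transcripts. Reln (chromosome 5, 21884454 to 22344702, minus strand), the extracellular glycoprotein reelin made in liver by stellate cells, was at 5.31, 24.2, 0, 0 and 34.8 CPM in members of knockout 1 and 3 and control 1, 2 and 3, against 929, 222, 36.8, 448 and 481 CPM in Dpt Lum fibroblasts. Every member value lay below every Dpt Lum value, and the mean log2 ratio was -3.98 ± 1.66 (SD, n = 5 mice). Vipr1 (chromosome 9, 121642716 to 121672954, plus strand), a receptor of vasoactive intestinal peptide, was at 5.31, 4.84, 0, 5.38 and 10.2 CPM in members, against 182, 79.3, 73.5, 93.3 and 130.1 CPM in Dpt Lum fibroblasts, a log2 ratio of -2.97 ± 0.42. Pde7b (chromosome 10, 20398004 to 20725078, minus strand), a phosphodiesterase that degrades cyclic AMP, was at 37.1, 19.4, 5.40, 21.5 and 14.5 CPM in members, against 259, 127, 73.5, 173 and 107 CPM in Dpt Lum fibroblasts. Its log2 ratio of -2.39 ± 0.15 varied least across mice among the 3. The 2-fold lower set also held Colec11 (a collectin), Itga8 (the integrin alpha 8 chain), Ednrb (an endothelin receptor), Ank3, Tlcd4, Gucy1b1 (a subunit of the nitric oxide receptor) and Prkg1 (cGMP-dependent protein kinase).

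Dpt Lum fibroblasts were a mixed reference in this respect. A UMI of Reln, Lrat, Vipr1, Colec11 or Rgs5 was found in 30 of 201 members (14.9%) and in 74 of 177 Dpt Lum fibroblasts (41.8%). An alternative chosen after the data were seen left those cells out of both classes and pooled UMIs over libraries. In it, 20 of the 21 higher genes were past 2-fold by the pooled ratio, and their median log2 ratio was 1.37. Of the 26 lower genes 13 were past 2-fold, with a median of -0.99. A pooled ratio is a looser criterion than 2-fold in every mouse, and the genes were picked from the same data, so these counts are no test of the sets. Reln, Vipr1 and Colec11 are at 0 in this setting by its construction. They remain among the 26 and in the median, and count there as genes not past 2-fold. Pde7b was still lower, at -2.10, while P3h2, a prolyl hydroxylase of collagen, turned to 0.32.

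**Figure D2:**
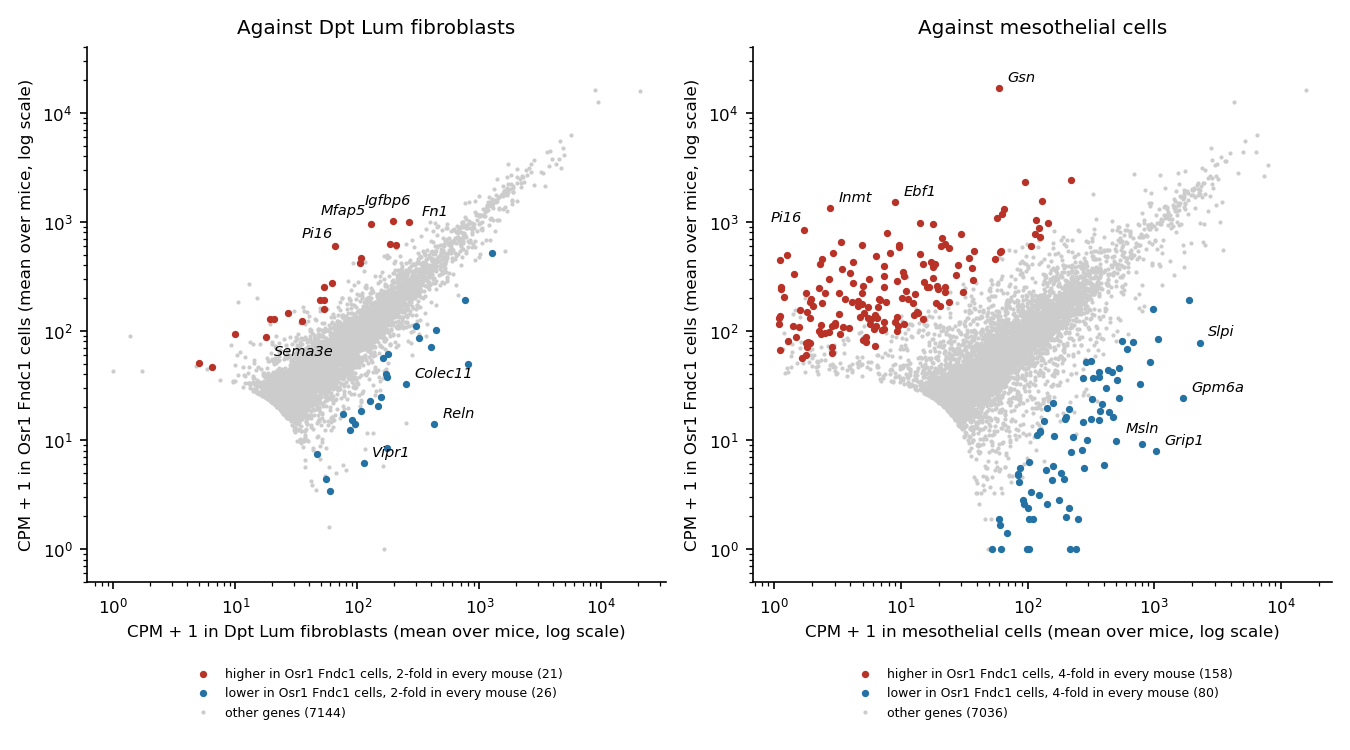
Mean CPM + 1 of each gene (log axes) in members on the vertical axis against Dpt Lum fibroblasts (left, 5 mice) and mesothelial cells (right, 6 mice) on the horizontal axis. Red and blue points are genes past 2-fold in every mouse on the left (21 higher, 26 lower) and past 4-fold in every mouse on the right (158 higher, 80 lower), so the cloud is wider against mesothelial cells.

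The upstream sequences of 2 genes are printed, Fndc1 because it carries the rule, which keeps it out of the contrast with Dpt Lum fibroblasts, and Reln because it had the lowest ratio of the 3 genes that were 4-fold lower in that contrast. They are the 250 bases before the annotated start, 5′ to 3′ on the strand of the gene, from RefSeq on GRCm38.p6. Fndc1 lies at chr17:7827303-7827552 on the minus strand and Reln at chr5:22344706-22344955 on the minus strand. Capitals mark matches on either strand to TATAAA, the TATA box core, and GGGCGG, the GC box bound by SP factors. A palindrome bound by early B cell factors (EBF), TCCC and GGGA with any 2 bases between them, was searched too and has no match in either sequence.
Fndc1: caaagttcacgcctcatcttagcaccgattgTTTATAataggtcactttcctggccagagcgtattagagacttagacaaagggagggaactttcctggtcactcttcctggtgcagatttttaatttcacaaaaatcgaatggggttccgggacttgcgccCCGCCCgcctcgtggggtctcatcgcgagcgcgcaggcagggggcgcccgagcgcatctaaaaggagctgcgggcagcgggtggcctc
Reln: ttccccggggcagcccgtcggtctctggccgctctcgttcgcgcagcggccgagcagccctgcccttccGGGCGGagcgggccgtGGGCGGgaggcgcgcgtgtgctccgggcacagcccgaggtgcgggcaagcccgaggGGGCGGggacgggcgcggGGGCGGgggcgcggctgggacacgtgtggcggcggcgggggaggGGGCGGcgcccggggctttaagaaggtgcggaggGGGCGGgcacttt
The Fndc1 sequence holds a TATAAA match and a GGGCGG match, both on the opposite strand, and the Reln sequence holds several GGGCGG matches. Osr1 and Tmem119 are named here without a sequence. Of the 21 higher genes, 12 matched the RefSeq table with 16 promoters, and of the 26 lower genes, 17 matched with 31. TATAAA was found in 4 of the 16 promoters of higher genes (25%; Ackr3, Fez1, Igfbp6 and Ly6c1), in 2 of the 31 promoters of lower genes (6.45%; Myo10 and Sox6) and in 12.4% of all 32851 promoters of the same length. GGGCGG was found in 8 of the 16 (50%), in 17 of the 31 (54.8%) and in 32.7% of all promoters. The EBF palindrome was found in 0 of the 16, in 1 of the 31 (3.23%, Arvcf) and in 0.779% of all. These are matches of letters in short windows and were not tested.

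Of 15 measured genes on the list of portal and adventitial fibroblast markers, 12 had a mean ratio above 0 against Dpt Lum fibroblasts and 3 were past 2-fold in every mouse (Pi16, Fbln2 and Ly6a). The median log2 ratio of the list was 0.82, beside -0.04 over all 7191 genes. Clec3b, the plasminogen-binding protein tetranectin, was at 1280.45 ± 245 CPM in members and 441 ± 180.3 CPM in Dpt Lum fibroblasts and was higher in all 5 mice. Cd34, a sialomucin of progenitors and adventitial fibroblasts, was likewise higher in all 5 mice, at 620.4 ± 161 CPM in members and 248 ± 72.8 CPM in Dpt Lum fibroblasts. Of 18 measured stellate cell markers, 1 had a mean ratio above 0, 2 were 4-fold lower and 3 were 2-fold lower in every mouse, and the list's median was -1.79. Ecm1, a matrix glycoprotein and one of the more abundant of them in members, had a ratio of -0.67 ± 0.65. Of the 5 measured mural markers 0 had a mean ratio above 0 (median -1.38).

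Matrix lists differed in direction, and for comparison 3310 of all 7191 genes had a mean ratio above 0. Of 15 measured genes of the elastic fibre, 11 had a mean ratio above 0 (median 0.41), with Mfap5 and Fbln2 past 2-fold in every mouse and Fbn1, the core microfibril protein fibrillin 1, at 1.41 ± 0.93. Of 13 fibrillar and related collagens, 12 were above 0 with a median of 0.34, and none was past 2-fold in every mouse. Col1a1 averaged 2326 CPM in members and 1692 CPM in Dpt Lum fibroblasts over 6 libraries, a mean that rests partly on 1 cell: in knockout 1 a single member held 85.8% of the Col1a1 UMIs, and the library's level was 5629 CPM with it and 1088 CPM without it. Of 13 proteoglycan genes 10 were above 0 (median 0.61), and Has1, a hyaluronan synthase, was at 1.54 ± 0.99. Of 18 enzymes and inhibitors of matrix assembly and turnover 14 were above 0 (median 0.45). Of 15 basement membrane genes 6 were above 0 (median -0.08), and of 12 matricellular genes 5 were (median -0.22).

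Signalling lists were small and mixed. Of 5 measured genes on a list of the lysophosphatidic acid pathway and related genes, 4 were above 0 (median 1.23). Besides Enpp2 (1.23 ± 0.41), they were Plpp3, a phosphatase that breaks down lysophosphatidic acid (1.35 ± 0.83), Enpp3, an ectonucleotidase (1.27 ± 1.16), and the receptor Lpar1 (0.61 ± 0.65). Of 24 transcription factors of mesenchyme 15 were above 0 (median 0.29). Ebf2, an early B cell factor of mesenchymal progenitors, was at 1.69 ± 0.55, and its relative Ebf1 at 1.12 ± 0.61, both higher in all 5 mice. Of 17 cytokines and chemokines 7 were above 0 (median -0.08), and Cxcl12, the ligand of CXCR4 made by stellate and reticular cells, was lower in members in all 5 mice, at 538 ± 318 CPM against 1615 ± 419.9 CPM in Dpt Lum fibroblasts. Of 11 measured complement genes 7 were above 0 (median 0.36), led in level by C3, at a ratio of 0.96 ± 0.51. Of 14 genes of antigen presentation on MHC molecules 4 were above 0 (median -0.41).

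**Figure D3:**
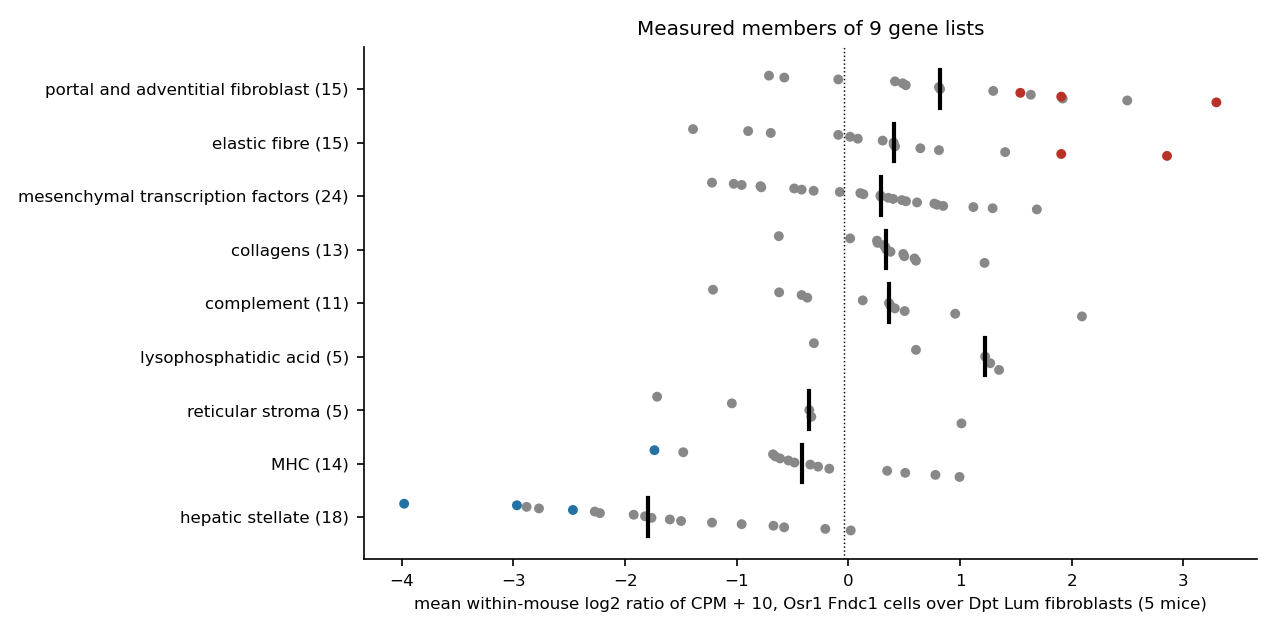
Within-mouse log2 ratio of members over Dpt Lum fibroblasts for each measured gene of the lists (points, mean of 5 mice) with the list's median (black bars) for 9 lists, in red or blue where past 2-fold higher or lower in every mouse. The dotted line is the median of all genes. The portal and adventitial list has a median of 0.82, the stellate list one of -1.79, and all 7191 genes one of -0.04.

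More genes passed against mesothelial cells, although both classes express the genes of the rule. The 2 contrasts are not on equal terms, as 2641 mesothelial cells stood against 177 Dpt Lum fibroblasts, which were compared over fewer mice. Over 6 mice and 7274 genes, 158 were 4-fold higher in members in every mouse (2.17%) and 80 were 4-fold lower (1.1%). At 2-fold, 365 were higher (5.02%) and 274 lower (3.77%). Gsn, the actin-severing protein gelsolin, was at 16822 ± 3688 CPM in members and 58.0 ± 16.1 CPM in mesothelial cells, a log2 ratio of 7.96 ± 0.60. Inmt, a methyltransferase of indoleamines, had a ratio of 6.68 ± 0.90, Ebf1 of 6.46 ± 0.53 and Pi16 of 6.07 ± 0.85. C7, a terminal complement component, Htra3, a secreted serine protease, Pcolce2 and Ebf2 followed at 5.46 to 5.58. In the other direction, Grip1, a scaffold protein with PDZ domains, had a ratio of -6.16 ± 0.87, and Gpm6a, a membrane glycoprotein of neurons and mesothelium, one of -6.12 ± 1.24. Msln was at 8.23 ± 14.4 CPM in members and 798 ± 161 CPM in mesothelial cells, a ratio of -5.70 ± 0.90. Rbfox1, Slpi (a secreted protease inhibitor), Lgals2, Aqp1 (a water channel) and Enpp6 were between -4.91 and -4.58. All 10 measured genes of the mesothelial list had a mean ratio below 0, and Upk3b and Muc16 were no part of this comparison because they are gate genes.

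Some genes were shared between members and mesothelium. Wt1, the transcription factor of mesothelium and its derivatives, was at 199.8 ± 59.7 CPM in members, 203 ± 106 CPM in Dpt Lum fibroblasts and 705 ± 79.1 CPM in mesothelial cells (6 libraries). Igfbp6 was at 989 ± 392.0 CPM in members and 1512 ± 180.2 CPM in mesothelial cells, so this gene of the set above was lower in members than in mesothelial cells in all 6 mice. Decorin and C3 were abundant in both. Dcn was 1.55 ± 0.34 higher in members on the log2 scale, and C3 was lower in members by 1.21 ± 0.57 on that scale.

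Against Myh11 mural cells, 90 of 6924 genes were 4-fold higher in members in every one of 5 mice (1.3%) and 109 were 4-fold lower (1.57%). At 2-fold, 289 were higher (4.17%) and 331 lower (4.78%). Inmt (6.05 ± 1.81), Clec3b (6.04 ± 1.43), C3 (5.94 ± 1.65), Pi16 (5.94 ± 1.06), Igfbp6, Mfap5, C7 and Ly6a led the higher genes. The contractile genes Acta2 (-9.27 ± 1.03), Tagln (-7.72 ± 0.80), Myl9 (-6.56 ± 0.61) and Tpm2 (-5.96 ± 0.78) were among the lowest, with Rgs5 (-6.65 ± 0.69), a regulator of G protein signalling in pericytes, Ctnna3, Dgkb and Corin. Acta2, smooth muscle actin, was at 3.48 ± 7.79 CPM in members and 7781 ± 1963 CPM in mural cells. Acta2 also marks activated myofibroblasts.

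The members were not uniform. When members, Dpt Lum fibroblasts and mural cells (744 cells) were clustered together without the gate genes, Sntg1 and Enpp2, members fell into 7 of 11 clusters. Each cluster is described by its leading genes, which are named after their values were seen and were not tested. The largest group, 104 members (51.7%), lay in a cluster led by Penk, Col6a5 and Igf1, in which they made up 104 of 165 cells and came from all 6 libraries. The next, 36 members (17.9%), lay in a cluster of 40 cells led by Pi16, Sema3e, Sbsn, Ly6c1 and Mfap5, also from all 6 libraries, and only 4 Dpt Lum fibroblasts joined them. A cluster led by C7, Sfrp1 and Grem1 held 29 members and 36 Dpt Lum fibroblasts and had no member from control 2. A cluster led by the epithelial genes Krt8, Spp1 and Krt18 held 16 members, and 5 of its 32 cells were called doublets. Of these 16 members, 4 had a UMI of Dpt, 6 one of Lum and 10 one of Krt19. A cluster led by Reln, Tlcd4 and Robo2 held 10 members and 46 Dpt Lum fibroblasts. All 10 of these members had UMIs of Dpt and Lum, while 8 had one of Colec11 and 0 had one of Clec3b or Ebf1. Clusters led by S100a9 with MHC class II genes and by Ptn, Wif1 and Thy1 held 3 members each.

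The clusters split the transcripts of the rule. Fndc1 was at 503 CPM in members of the Penk cluster, 950.0 CPM in the Pi16 cluster, 378 CPM in the C7 cluster, 187 CPM in the Krt8 cluster and 0 CPM in the Reln cluster (UMIs pooled over members, with no replicates). Tmem119 was at 60.9, 29.4, 100.4, 146 and 219.8 CPM in the same order. The rule asks for at least 2 UMIs of the 3 genes together. Members without Fndc1 and Osr1 must therefore hold Tmem119, so its high level in the Reln cluster is no finding. Of the 14 members with Tmem119 but neither Osr1 nor Fndc1, 9 lay in the Reln cluster, and of the 120 with Osr1 or Fndc1 but no Tmem119, 0 did. The name Osr1 Fndc1 thus does not describe these 14 cells. Pi16 was at 2867 CPM in members of the Pi16 cluster, 283 CPM in the Penk cluster and 30.9 CPM in the C7 cluster, so its level was highest in a minority of members. Fn1 was at 2560 CPM in the Pi16 cluster, 1006 CPM in the Penk cluster and 135 CPM in the C7 cluster. Penk, the precursor of enkephalins, was at 602 CPM in the Penk cluster and 160 CPM in the Pi16 cluster, while C7 was at 1972 CPM in the C7 cluster and 124 CPM in the Pi16 cluster. Ebf2 was measured in all 3 of these clusters, at 436, 839 and 216 CPM in the Penk, Pi16 and C7 clusters, and had 0 UMIs in members of the Reln cluster.

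**Figure D4:**
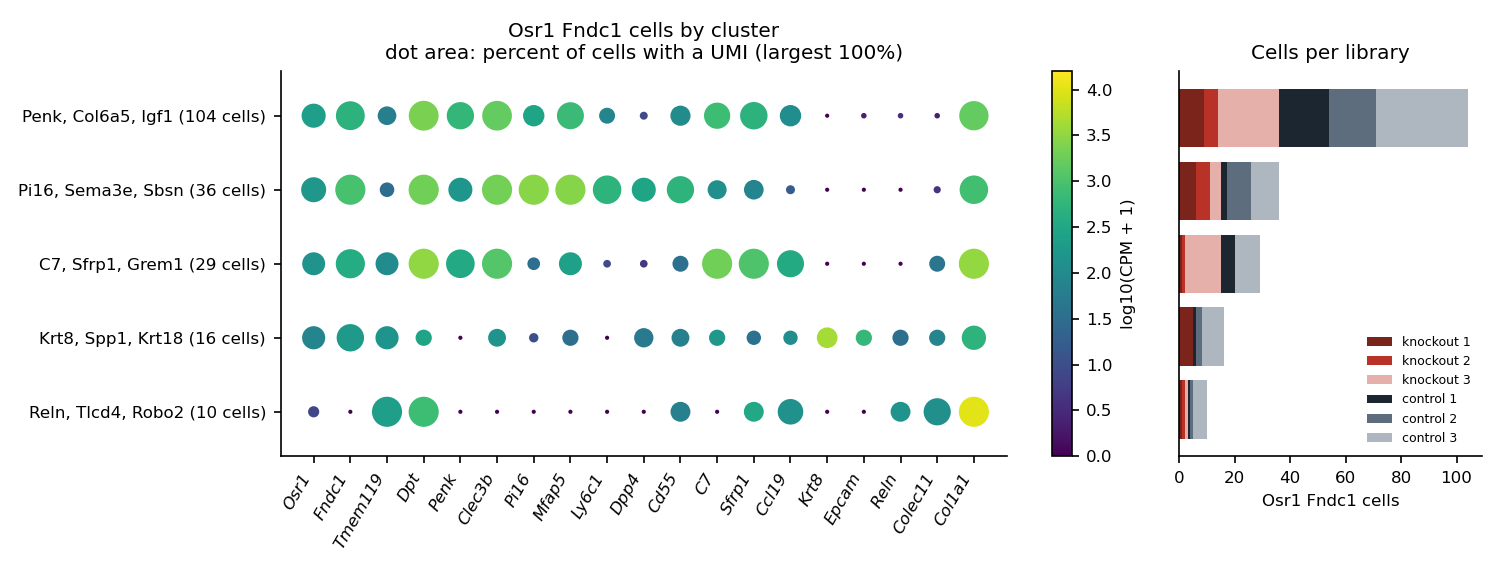
Members in the 5 clusters that hold at least 10 of them: dot colour is the level of each gene (log10 of CPM + 1, pooled UMIs), dot area the percent of cells with a UMI, and the stacked bars on the right are members per library. Fndc1 is at 0 CPM in the cluster led by Reln, and Pi16 is at 2867 CPM in the cluster led by Pi16.

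The genotype comparison asked whether endothelial Sting deletion came with a different number or profile of these cells. Sting1 was first examined in every class. In members it had 1 UMI in 78 knockout cells and 8 UMIs in 123 control cells, a mean of 1.77 ± 3.06 CPM in knockout and 6.502 ± 5.73 CPM in control members (SD, n = 3 mice each). The per-library values were 5.31, 0 and 0 CPM in knockout and 10.8, 0 and 8.71 CPM in control members, so the groups overlapped. Dpt Lum fibroblasts had 8 UMIs in knockout and 11 in control libraries, and mural cells had 1 UMI in knockout and 6 in control libraries. Mesothelial cells had 16.4 ± 3.46 CPM in knockout and 13.1 ± 2.54 CPM in control libraries. In the cells of the endothelial gate, where the deletion is meant to act, Sting1 was at 22.7, 16.0 and 22.4 CPM in knockout and 23.8, 25.9 and 26.0 CPM in control libraries. A 3′ tag outside the floxed part can persist after recombination, so this level does not check the deletion.

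Members made up 0.305%, 0.200% and 0.610% of filtered cells in the knockout libraries and 0.336%, 0.333% and 1.36% in the control libraries. The control 3 share stood apart from the other 5, which overlapped between genotypes. The mean was 0.371 ± 0.213% in knockout and 0.675 ± 0.590% in control mice, a difference of -0.304 percentage points (exact two-sided permutation test, p = 0.5, where 3 against 3 mice cannot go below 0.1). The edgeR quasi-likelihood test on cell numbers gave a log2 fold change of -0.84 (SE 0.779) with an adjusted p of 0.492 over the 4 classes, and 0.15 without control 3. Among the cells of the 4 stromal gates, members were 3.91%, 3.82% and 5.32% in knockout and 6.52%, 4.03% and 12.8% in control libraries, a difference of -3.43 points (exact p = 0.2), which was -0.93 points without control 3. Since a share depends on all other cells recovered, fewer members and more of other cells cannot be told apart.

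No gene passed the genotype test in members. Of 3652 genes tested with edgeR on UMIs summed per library, 0 were called at an adjusted p under 0.05 (0%), with 94 at an unadjusted p under 0.05 (2.57%). DESeq2 also called 0, with 60 at an unadjusted p under 0.05, and edgeR without a filter on low counts called 22. The 2 groups of libraries did not overlap in 292 genes (8%), of which 137 were higher in knockout (3.75%) and 155 lower (4.24%). In Dpt Lum fibroblasts of 2 knockout and 3 control libraries 0 of 4816 genes were called (0% with edgeR, 285 at an unadjusted p under 0.05, and 0 with DESeq2), but 36 without knockout 3. The test of whether the knockout effect differed between the 2 classes called 0 of 5215 genes (0%, 312 at an unadjusted p under 0.05), while DESeq2 called 1.

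The gene of smallest p was Hspa1b (chromosome 17, 34956436 to 34959238, minus strand), an inducible heat shock protein of the HSP70 family. It was at 398, 573 and 706 CPM in knockout members and at 1366, 1658 and 1097 CPM in control members. All knockout libraries lay below all control libraries, with a log2 fold change of -1.29 (SE 0.301) that did not pass the test (edgeR, adjusted p = 0.99982). In Dpt Lum fibroblasts its log2 fold change was -1.43 (SE 0.374, adjusted p = 0.809), and the difference between the classes was 0.12 (SE 0.313). Hspa1b is nearly identical to its neighbour Hspa1a, so reads may have been split between them, and Hspa1a was at -0.31 (SE 0.330) in members. Hspa1b belongs to a list of 23 genes induced by tissue dissociation and stress, 20 of which had a log2 fold change below 0, with a median of -0.31 beside 0.01 over all genes, and 0 were called. The list's summed level was 24351 to 37546 CPM in knockout and 31347 to 49264 CPM in control members. These genes respond to tissue handling, and the part of handling in the result was not tested.

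The next genes by p did not pass either. On the lower side, Tuba1c, an alpha tubulin, was at 26.5, 24.5 and 38.7 CPM in knockout and 75.6, 86.1 and 81.3 CPM in control members, and Sgk1, a kinase induced by serum and glucocorticoids, was at 106, 81.8 and 162 CPM in knockout and 302, 242 and 247 CPM in control members. Their log2 fold changes were -1.34 (SE 0.383) for Tuba1c and -1.12 (SE 0.328) for Sgk1, and Snrpg and Wdr44 were at -1.06 and -1.40. On the higher side, Col12a1, a collagen that binds fibrils, was at 79.6, 57.3 and 114 CPM in knockout and 16.2, 32.3 and 36.3 CPM in control members, a log2 fold change of 1.50 (SE 0.413). Col6a3, a chain of beaded-filament collagen VI, was at 568, 229 and 397 CPM in knockout and 151, 161 and 225 CPM in control members, a log2 fold change of 1.12 (SE 0.360). Arl15 (1.20), Gipc2 (1.50) and Heg1 (0.92) completed the higher side. Groups did not overlap for these genes except Gipc2, in a table where 8% of genes showed no overlap.

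Lists in the genotype comparison are described by direction, as 0 of their members were called. Of 12 fibrillar and related collagens 11 had a log2 fold change above 0 (median 0.60), beside 1874 of all 3652 genes (median 0.01), and 2 had groups that did not overlap, beside 8% of all genes. The knockout libraries did not share this direction. The list's summed level was 4926 CPM in knockout 2, below every control library, whose sums were 6627 to 8131 CPM, while the highest knockout sum was 19545 CPM. Col1a1 was at 5629, 606 and 3602 CPM in knockout and 1506, 1119 and 1495 CPM in control members, and without its top cell knockout 1 was at 1088 CPM, also below every control. The log2 fold change was 1.24 (SE 0.685) for Col1a1 and 0.91 (SE 0.377) for Col1a2, and in knockout 1 a single member held 85.8% of the Col1a1 and 74.4% of the Col1a2 UMIs. Of 12 target genes of NF-kB 10 were below 0 (median -0.22). Of 14 portal and adventitial genes 9 were above 0 (median 0.26), and Pi16 was at 939, 2046 and 481 CPM in knockout and 605, 565 and 390.3 CPM in control members, which overlapped. Of 5 genes of the STING pathway 2 were above 0 (median -0.02), with Ifi203 at -0.38 (SE 0.378) and Rela at 0.17 (SE 0.371). Of 5 interferon-induced genes 3 were above 0 (median 0.40), with Ifi27l2a at 0.95 (SE 0.478) and Stat2 at -0.67 (SE 0.380). The rule genes Fndc1 (0.18, SE 0.306), Osr1 (-0.005, SE 0.318) and Tmem119 (-0.08, SE 0.414) did not pass the test, nor did Sntg1 (0.13, SE 0.334) and Enpp2 (-0.01, SE 0.317).

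**Figure D5:**
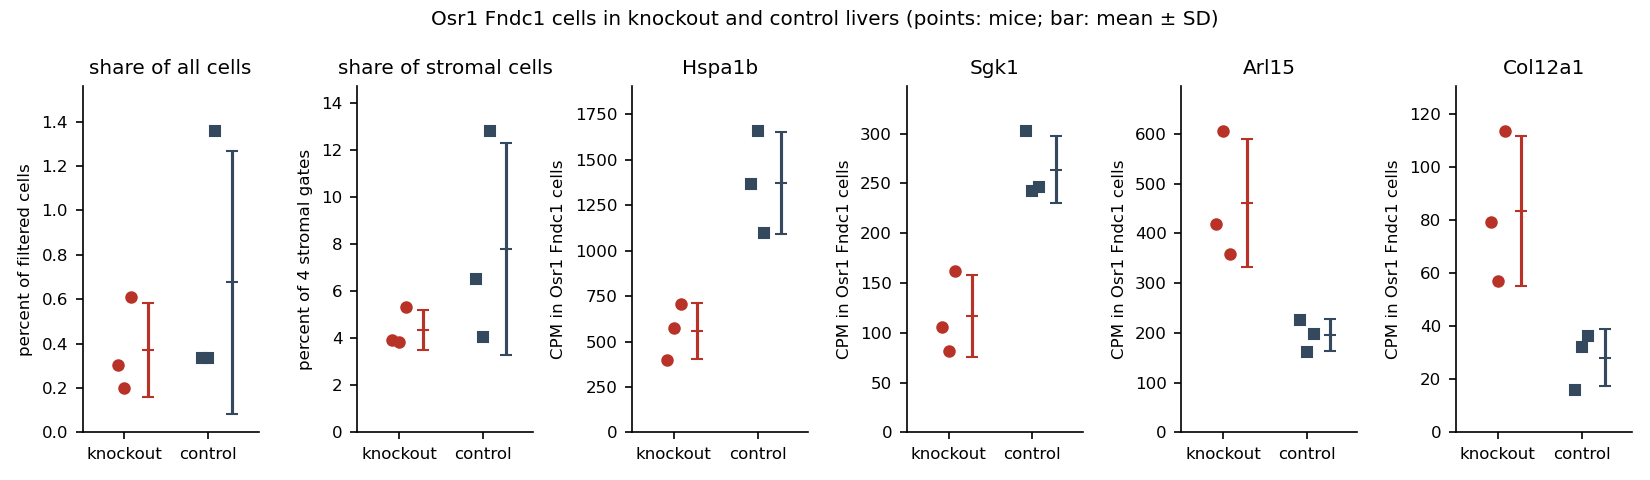
Members as a share of filtered cells and of the 4 stromal gates (percent), and levels of Hspa1b, Sgk1, Arl15 and Col12a1 in members (CPM), each point a mouse and bars the mean ± SD, with knockout left of control. Control 3 has the highest share at 1.36%, and Hspa1b lies between 398 and 706 CPM in knockout and between 1097 and 1658 CPM in control libraries.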

How the data were processed

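The deposited matrices hold raw UMI counts of 31253 genes for 44656 barcodes in 6 libraries, 1 per mouse, which the titles call biological replicates. The submitters' processing notes name Cell Ranger 7.1.0, Seurat 4.1.1 and mm10. The annotation release was not given in the sources used here, so gene positions come from GENCODE M21 on GRCm38, matched by Ensembl identifier.

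Members, Dpt Lum fibroblasts, mesothelial and mural cells were gated on raw UMIs, and UMIs were summed per library and class, so the mouse is the replicate. Identity ratios used CPM + 10 within mice with at least 10 cells of both classes. Since the gates come from transcripts of the same cells, they were not tested. Genotype was tested with edgeR 4.0.16 (R 4.3.3; TMM, filterByExpr, robust quasi-likelihood fit, Benjamini-Hochberg over all genes tested, threshold 0.05) and, as an alternative, DESeq2 1.42.0. The difference of genotype effects had mouse as a block. The scripts were tested on simulated data. Clusters came from 1500 variable genes, 20 principal components, 15 neighbours and Leiden resolution 0.8 (Python 3.11.15, scanpy 1.11.5, leidenalg 0.10.2). Scrublet's own cut-off failed in control 2 (0 cells) and control 3 (1 cell), so the doublet calls use 1 common score, set after the scores were seen. Called doublets stayed in, and leaving them out was an alternative.

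The rule, the gene lists and the tests were chosen with earlier results of these data known. Named genes are those of the rule and markers, those of largest ratio past 4-fold in every mouse (15 each way against Dpt Lum fibroblasts, 8 against the other classes), the most abundant of each list (up to 4), the genes of smallest p (5 each way) and Sting1. Names outside this rule are marked in the text or were chosen after their values were seen, as were all genes of the 2-fold sets. In 3 same-numbered pairs of mice, deviations from the group means correlated at -0.10, 0.13 and 0.10, so the numbers were not taken to pair the mice.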

Additional observations from a re-analysis of the deposited data

How the results depend on the processing

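The 4-fold counts against the other classes depend on the pseudocount and fold. Against Dpt Lum fibroblasts, 3 genes became 8 at a pseudocount of 1, 0 at 50, 47 at 2-fold, 0 at 8-fold, 41 with UMIs pooled over libraries and 32 pooled without cells holding stellate UMIs; leaving out 1 mouse gave 3 to 6. P3h2 reversed to 0.32 in that last pooled setting. Against mesothelial cells, 238 became 380 at a pseudocount of 1, 63 at 50, 639 at 2-fold and 80 at 8-fold. Against mural cells, 199 became 312, 66, 620 and 52 in the same settings, and leaving out 1 mouse gave 201 to 378, the highest without control 3. Without a filter on low counts, 22 genes were called for genotype in members, 33 in Dpt Lum fibroblasts and 54 for the difference between them; the other alternatives run, DESeq2, the replicate block and leaving out each mouse among them, called 0 in members. In Dpt Lum fibroblasts, 2 genes were called with the replicate block, 1 with doublets left out and 0 to 36 with 1 mouse left out, 36 without knockout 3 and 3 without knockout 1, where the lone knockout library is assumed to vary like the controls. For the difference, DESeq2 called 1 and leaving out 1 mouse gave 0 to 23, 23 without control 2. The log2 fold change of the members' share was -0.84, -0.70 with the replicate block (adjusted p = 0.150) and -1.39 to 0.15 with 1 mouse left out, reversed without control 3 only. Rela was at -0.070 to 0.50 with 1 mouse left out, reversed without knockout 2 only. The cause of these shifts was not tested. Same-numbered mice did not all correlate best with each other. Leaving out members with at least 2 UMIs of Dpt and Lum left 13 cells, too few for a gene test or an identity ratio.

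The main limits are size and depth. Knockout 2 had 13 members and 122208 UMIs in them, against 689140 UMIs in control 3, so low genes were not measured in every library, and several levels rest on 1 cell. Intervals and floors cover counting error only.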
